A study of Capra hircus with 12 samples.

Results

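In black goat testis, 139 of the 24116 loci listed by the authors gave no read in any of the 6 libraries made before puberty and a clear signal in each of the 5 libraries made at or after it. They are loci that the authors' transcript assembly numbered itself (names of the form MSTRG.n, the form StringTie gives to the loci it assembles). They were chosen on the FPKM values described here (FPKM counts fragments relative to locus length and to the library's mapped total). A locus was taken when its number lay under 405000, its mean over the 11 libraries was under 20 FPKM, its value was 0 in all 6 neonatal and prepuberty libraries and at least 2 in each of the 5 puberty and postpuberty libraries, and its puberty mean was under 1.5 times its postpuberty mean. The difference between the younger and the older ages is therefore the criterion of the choice and not a finding.

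The study followed testis development with total RNA libraries prepared by a protocol aimed at long non-coding transcripts. All libraries carry the wild-type label and no treatment is given. The groups were neonatal (titles with D3, n = 3), prepuberty (D30, n = 3), puberty (D90, n = 2) and postpuberty (D180, n = 3). Puberty replicate 1 was not analysed here. Nothing in the labels says that each replicate is its own animal, so any p-value reflects the spread among these libraries alone, which may be technical.

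As background, the testis before puberty holds mainly Sertoli cells, Leydig cells, other somatic cells and spermatogonia. With the onset of puberty, germ cells enter meiosis, and spermatocytes, then round and elongating spermatids, fill the tubules. These later germ cells are known for a very broad transcriptome that includes many testis-specific transcripts and long non-coding RNAs. The libraries are of whole tissue, in which more cells of a type and more RNA per cell cannot be told apart. The files pair none of the loci with a gene symbol, 0 of the identifiers matched the 28911 genes of the RefSeq table for the goat assembly ARS1.2, and none of the 16 cell-type marker symbols looked up could be placed. The loci are therefore named by their identifiers alone, without position, biotype or sequence, and the labelled tissue could not be checked against marker genes.

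Depth was recovered from the steps of the FPKM values. The mapped totals used for scaling ran from 19128357 (neonatal replicate 3) to 26802945 (prepuberty replicate 1) in the younger libraries and from 28124423 (postpuberty replicate 2) to 35614224 (puberty replicate 2) in the older ones. Libraries of the younger ages were thus shallower in every case. A pair of libraries bore most on which loci were chosen, namely prepuberty replicate 1, which alone kept 76 further loci out, and puberty replicate 3, which alone kept 61 out.

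The filter narrowed quickly. Of the listed loci, 3874 had FPKM 0 in all 6 younger libraries, and 147 of these reached 2 FPKM in each of the 5 older ones. A number under 405000 left 142, a mean under 20 left 141 and the limit on the puberty mean left 139. By contrast, 3142 loci met every criterion except the 2 FPKM asked of each older library, and 1054 met every one except the 0 asked of each younger library. The lowest older library stood just above the limit for MSTRG.178213 (2.01 FPKM), MSTRG.308821 (2.02) and MSTRG.312983 (2.03), and just under it for MSTRG.261826 (1.999), MSTRG.268236 (1.98) and MSTRG.161799 (1.97), which were left out. In the younger libraries, the nearest loci left out for a value above 0 were MSTRG.92861, MSTRG.10156 and MSTRG.238322, whose highest younger values were 0.0038, 0.0052 and 0.0060 FPKM. Both limits thus cut through a continuous range of values. The mean over the 11 libraries reached 17.7 FPKM in MSTRG.172107, 14.6 in MSTRG.278356 and 14.4 in MSTRG.198703, while MSTRG.266351 was left out at 22.1. The puberty mean stood at 1.48 times the postpuberty mean in MSTRG.176246, 1.39 times in MSTRG.178213 and 1.35 times in MSTRG.80268, while MSTRG.319581 (1.56 times) and MSTRG.166674 (1.63 times) were left out. The highest numbers were MSTRG.399684, MSTRG.395335 and MSTRG.389913, and MSTRG.413217 was the only locus left out by the number limit alone.

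Most of the 139 loci were of modest abundance once present. Their mean over the 5 older libraries was between 2 and 5 FPKM in 58 loci, between 5 and 10 in 56, between 10 and 20 in 22 and above 20 in 3, with a median of 5.44 FPKM. In puberty replicate 2 they ran from 2.13 to 37.7 FPKM with a median of 4.28, and in puberty replicate 3 from 2.02 to 32.1 with a median of 3.76. Medians in postpuberty replicates 1, 2 and 3 were 6.09, 5.94 and 6.90 FPKM, with highest values of 47.0, 36.5 and 50.3. All 3 postpuberty medians lay above both puberty medians. The same order held among loci that entered the test described below and had a postpuberty mean of at least 2 FPKM. Their medians were 2.48 and 2.36 FPKM in puberty replicates 2 and 3, and 3.15, 3.15 and 3.57 in postpuberty replicates 1, 2 and 3. The number of the 139 loci at 10 FPKM or more was 24 and 15 in the puberty libraries and 36, 26 and 41 in the postpuberty libraries. This count was not set beside all loci.

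**Figure D1:**
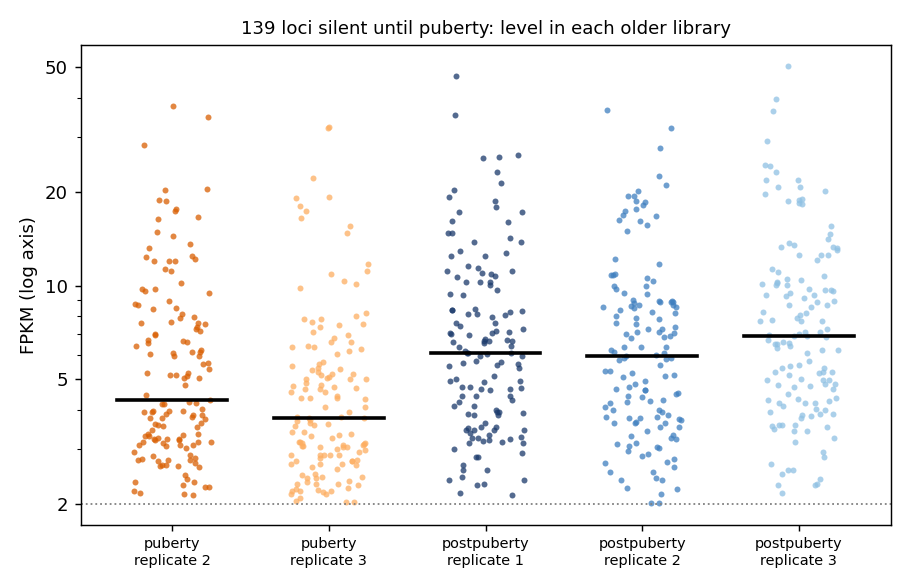
FPKM (log axis) of the 139 loci in each of the 5 older libraries. Each point is 1 locus, the black bar is the median over loci and the dotted line is the 2 FPKM asked of each library; the medians are 4.28 and 3.76 at puberty and 6.09, 5.94 and 6.90 after it.

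Counted as reads, the 139 loci together took 41218 and 31928 reads in the puberty libraries and 47484, 36054 and 45349 in the postpuberty libraries. In RPM, the usual scaling of reads to the mapped total, this was 1041 ± 164 (SD, n = 2) at puberty and 1383 ± 109 (SD, n = 3) in postpuberty. As a share of the reads on all listed loci, the values were 1.14% and 0.914% at puberty and 1.05%, 0.962% and 1.03% in postpuberty, so on that scale the ages overlapped. The younger libraries held 0 reads on them out of 138335165 mapped in all 6, as the rule required. A floor of 3 reads, or 0.0217 RPM, is used below as a convention. It is not a confidence limit, because the loci were chosen for these zeros. Each single locus rested on 150 to 7617 reads over the 5 older libraries (median 1034). The fewest in 1 library were 26 reads on MSTRG.289601 in puberty replicate 2, with an exact Poisson 95% interval of 17.0 to 38.1 (counting error only). With 3 reads on a locus, summed across all 6 younger libraries, as the floor, the puberty mean was 34.9-fold (MSTRG.289601) to 2072-fold (MSTRG.80268) above it. The median was 255. For the postpuberty mean these ratios ran from 48.3-fold to 2227-fold (MSTRG.207513), with a median of 319. Since the choice itself asked for 0 reads, the ratios to the floor are no lower bounds on the rise. A higher ratio to the floor goes with a longer locus as well as a higher level, because a long locus collects more reads at the same FPKM.

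The puberty rise was used in the choice and is given as a description. In the fit of log2(FPKM + 1) with limma over all ages, 139 of 139 loci were called higher in puberty than in prepuberty (Benjamini-Hochberg adjusted p under 0.05 and a log2 change of at least 1). Of all 12954 loci tested, 23.7% were called higher in that comparison. The median log2 change on the log2(FPKM + 1) scale was 2.38 in the 139 loci and 0.26 in all loci tested. This scale understates the change of low loci.

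The most abundant was MSTRG.172107, an implied 447 bases long, with 37.7 and 32.1 FPKM in puberty replicates 2 and 3 and 47.0, 27.6 and 50.3 in postpuberty replicates 1 to 3. Its puberty mean of 34.9 ± 3.93 (SD, n = 2) lay within the range of its postpuberty libraries. MSTRG.278356 had 34.6 and 19.1 FPKM at puberty and 35.1, 31.9 and 39.6 after it, and its 2 puberty libraries lay further apart than its 3 postpuberty libraries. MSTRG.198703 had 28.1 and 32.1 FPKM at puberty and 25.6, 36.5 and 36.2 in postpuberty. The ages overlapped in all 3 of these loci, which were the only loci with a mean above 20 FPKM over the older libraries.

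The next in order differed little between neighbours. MSTRG.249560 had 20.4 and 17.3 FPKM at puberty and 20.3, 16.7 and 24.4 in postpuberty, and MSTRG.224823 had 16.3 and 18.0, then 17.8, 20.03 and 21.8. MSTRG.306017 was the steadiest of all 139 loci, with 18.7 and 19.2 FPKM at puberty and 18.7, 17.5 and 19.6 in postpuberty, a 1.12-fold range over the 5 libraries. MSTRG.59155 had 17.5 and 15.5, then 16.0, 18.0 and 20.7, and both it and MSTRG.224823 spanned a 1.34-fold range. These 4 loci overlapped between ages and among themselves, so their order is within their spread. MSTRG.318395 ran the other way, with 20.2 and 22.1 FPKM at puberty and 14.2, 15.0 and 20.1 in postpuberty, so that its groups did not overlap. MSTRG.8146 and MSTRG.159794 complete the 10 most abundant and were both called higher in postpuberty.

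**Figure D2:**
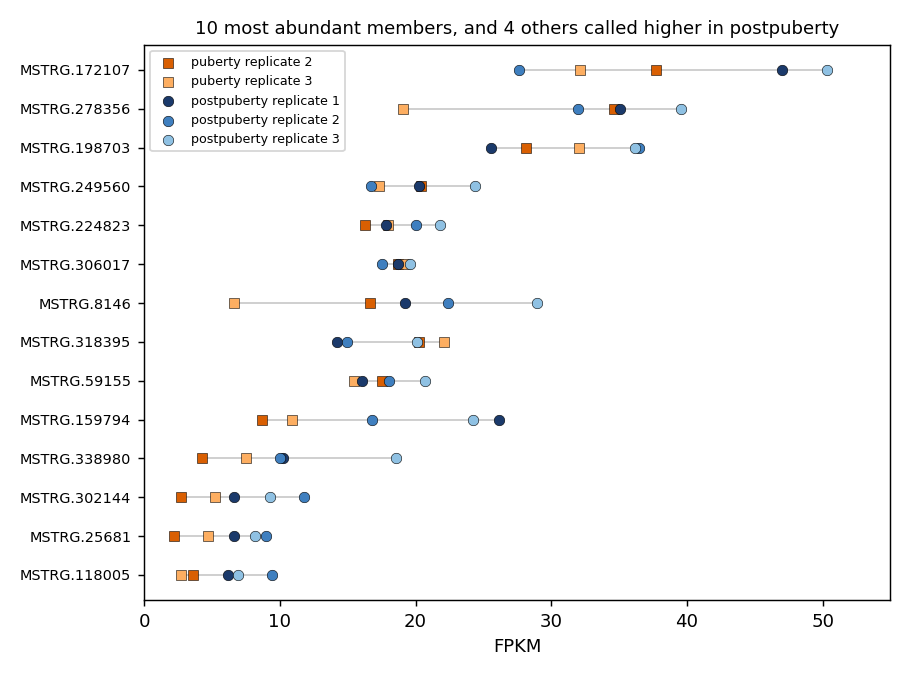
FPKM of the 10 most abundant loci and of the 4 others called higher in postpuberty than in puberty. Each symbol is 1 library (squares puberty, circles postpuberty) and the grey line spans the 5 values; MSTRG.306017 spans 17.5 to 19.6 and MSTRG.8146 spans 6.60 to 28.9.

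Once on, most of the loci were held at a similar or somewhat higher level in postpuberty. The postpuberty mean exceeded the puberty mean in 121 of 139 loci (87.1%), against 77.1% of the tested loci with a puberty value above 0. The median ratio of postpuberty to puberty mean was 1.34, against 1.32 in those tested loci and 1.40 in the tested loci with a postpuberty mean of at least 2 FPKM. A shift of this size was shared by the whole table. Under median of ratios scaling the ratio was 1.09 (all tested loci 1.07), and 88 loci stood above 1. Under quantile normalization it was 1.04 (all tested loci 0.951), with 79 above 1. On the TPM scale, which gives each library the same FPKM sum, it was 1.34 (all tested loci 1.31), with 122 above 1. The ratio was under 1 in 18 loci, between 1 and 1.5 in 74, between 1.5 and 2 in 35 and at least 2 in 12. The rule caps the puberty mean and so bounds this ratio from below.

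All 3 postpuberty libraries lay above both puberty libraries in 51 loci, all 3 lay below both in 2, and the ages overlapped in 86. Of all loci tested, 35.7% had postpuberty libraries wholly above and 3.88% wholly below, so 51 of 139 is near the background. The limma fit called 6 of the 139 loci higher in postpuberty and 0 lower, where 1.26% of all loci tested were called higher and 0.139% lower. Among all calls, 90.1% were higher in postpuberty; the share was 74.5% with median of ratios scaling and 55.4% with quantile normalization. All 6 calls were lost under either scaling and in the fit limited to the 5 older libraries, in which no locus of the table was called. In the main fit, 4 of the 7 residual degrees of freedom come from younger libraries in which these loci have no spread at all, so their error is understated.

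The 6 loci called were MSTRG.8146, MSTRG.159794, MSTRG.338980, MSTRG.302144, MSTRG.25681 and MSTRG.118005. MSTRG.8146 had 16.6 and 6.60 FPKM at puberty and 19.2, 22.4 and 28.9 in postpuberty. MSTRG.159794 had 8.70 and 10.9, then 26.2, 16.8 and 24.2, and its postpuberty mean was 2.28 times its puberty mean. Both were low in the same age, but the first owes most of its low puberty mean to replicate 3. MSTRG.338980, named after its values were seen, had 4.28 and 7.49 FPKM at puberty and 10.2, 9.99 and 18.6 in postpuberty. MSTRG.302144 had 2.71 and 5.19, then 6.62, 11.8 and 9.31, and MSTRG.25681 had 2.19 and 4.73, then 6.62, 8.98 and 8.20. MSTRG.118005 had 3.59 and 2.75, then 6.17, 9.46 and 6.90. In all 6 the postpuberty libraries lay above both puberty libraries, and in 4 of them the 2 puberty libraries differed by more than 1.7-fold.

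**Figure D3:**
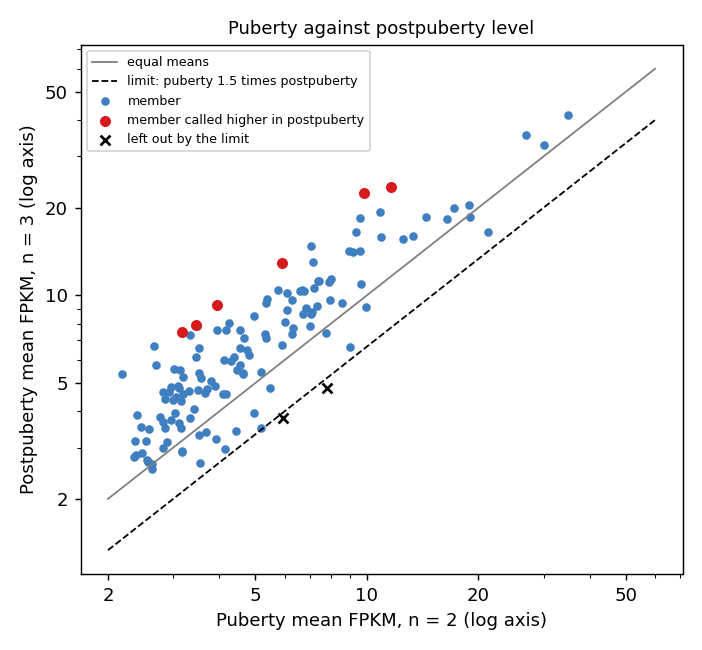
Postpuberty mean (n = 3) against puberty mean (n = 2) in FPKM, both on log axes, 1 point per locus. The solid line marks equal means, the dashed line the limit of the rule, red points the 6 loci called higher in postpuberty and crosses MSTRG.166674 and MSTRG.319581, which the limit left out; 121 of the 139 points lie above the solid line.

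The highest ratios were not all of one kind. MSTRG.308677 had the highest, 2.52, but it rested on 12.9 FPKM in postpuberty replicate 1 alone, with 3.01 and 2.32 at puberty and 3.42 and 3.77 in the other postpuberty libraries. MSTRG.219399, at 2.46, was even within each age, with 2.15 and 2.20 FPKM at puberty and 5.69, 5.57 and 4.81 in postpuberty. It was not called because its log2 change on the log2(FPKM + 1) scale, 1.00 when rounded, fell just short of 1. MSTRG.118005, MSTRG.302144 and MSTRG.25681 followed at 2.37, 2.34 and 2.29. At the other end stood MSTRG.176246 (0.677), MSTRG.178213 (0.717), MSTRG.80268 (0.741), MSTRG.318825 (0.752) and MSTRG.372432 (0.769). MSTRG.176246 had 7.59 and 2.74 FPKM at puberty and 3.33, 2.95 and 4.20 in postpuberty, and MSTRG.80268 had 14.4 and 3.56, then 8.40, 4.52 and 7.08. In both, puberty replicate 2 alone was high. In MSTRG.318825 the puberty values of 3.29 and 3.78 FPKM lay above all postpuberty values (2.65, 3.02 and 2.30), and with MSTRG.318395 it was the only locus of the 139 with such an order.

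The 2 puberty libraries also differed from each other. Puberty replicate 2 exceeded replicate 3 in 93 of 139 loci, and the median ratio of the 2 libraries was 1.25, against 1.03 in the tested loci with a postpuberty mean of at least 2 FPKM. They differed at least 2-fold in 23 loci, of which 16 were higher in replicate 2 and 7 in replicate 3. Across the 139 loci, log2 levels of the puberty pair correlated at Pearson's r = 0.67 and those of the postpuberty pairs at 0.80 to 0.83. The same pairs stood at 0.88 and at 0.89 to 0.92 in the tested loci with a postpuberty mean of at least 2 FPKM. Older means ran from 2.57 to 38.9 FPKM in the 139 loci, within the limits of the rule, and up to 11717 in those tested loci. A narrower range lowers such a correlation, so the sets cannot be compared on it. These correlations are across loci, which are not replicates, and each library's depth is shared by all its points. Over the 6 pairings of a puberty with a postpuberty library, the median ratio ranged from 1.17 to 1.66 and the postpuberty library was higher in 88 to 119 loci. In the tested loci with a postpuberty mean of at least 2 FPKM, the medians of the same pairings ran from 1.32 to 1.51. The ratios against puberty replicate 2 were 1.19, 1.17 and 1.33 in the 139 loci. In those tested loci they were 1.33, 1.32 and 1.48. The rule asked the 139 loci for 2 FPKM in each puberty library as well, while those tested loci were limited by their postpuberty mean. Such unlike limits bear on the ratios, so no conclusion is drawn from the difference, which was not tested. Postpuberty replicate 3 held the highest value of a locus in 66 of 139 cases and puberty replicate 3 the lowest in 76. Of the tested loci with a postpuberty mean of at least 2 FPKM, 47.0% were highest in postpuberty replicate 3 and 44.5% lowest in puberty replicate 3, so the first count is near the share in those loci.

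Within postpuberty, the SD was a median 21.5% of the mean, against 16.9% in the tested loci with a postpuberty mean of at least 2 FPKM. The highest of the 5 older libraries was under 1.5 times the lowest in 18 loci, under 2 times in 56 and at least 3 times in 34 (24.5%, against 23.2% of those same tested loci). The widest ranges, chosen after their values were seen, followed no age. MSTRG.228086 had 12.0 and 2.68 FPKM at puberty and 4.71, 19.4 and 3.47 in postpuberty, a 7.24-fold range. MSTRG.311725 had 13.6 and 2.20, then 12.4, 7.28 and 13.7, and MSTRG.171071 had 3.93 and 14.7, then 23.0, 21.0 and 5.53. Each of these was high in some and low in other libraries of the same age, so an age mean describes them poorly. MSTRG.357477 had 17.3 FPKM in puberty replicate 2 and 4.33 in puberty replicate 3, and its 3 postpuberty libraries were close together at 21.3, 18.6 and 18.3.

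Each library was also left out of the choice in turn, although the limits of the rule were set with earlier results of these data known. The rule was applied to the other 10 libraries and the loci it found were read in the one left out. Of the loci chosen without a younger library, 94.6% (139 of 147) were at 0 in neonatal replicate 1, 94.6% (139 of 147) in replicate 2 and 92.1% (139 of 151) in replicate 3. In prepuberty replicates 2 and 3 the shares were 93.9% (139 of 148) and 96.5% (139 of 144). Of all listed loci, 32.3% to 36.3% were at 0 in the 6 younger libraries. Those loci were not asked to be at 0 anywhere else. A locus chosen without a younger library and at 0 in it is always 1 of the 139. Each share thus restates how many loci that library alone kept out, and is no independent support for the silence. Prepuberty replicate 1 stood apart, with 64.7% (139 of 215) at 0.

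The 76 loci that prepuberty replicate 1 alone kept out had 241 reads there in all, a median of 2 and at most 16 per locus. Their values in that library ran from 0.0038 to 0.326 FPKM, a median of 0.695% of their mean over the older libraries. Each of the other 5 younger libraries alone kept out 5 to 12 loci, with 6 to 26 reads in all. The reads of prepuberty replicate 1 were thus few per locus but spread over many of the loci that came on later. Whether these reads came from cells of that testis or from the handling of the library was not tested.

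For the older ages, 92.0% (138 of 150) of the loci chosen without puberty replicate 2 reached 2 FPKM in it, and 96.5% (139 of 144), 95.2% (140 of 147) and 97.2% (139 of 143) of those chosen without postpuberty replicate 1, 2 or 3 did so. Of all listed loci, 9.58% to 17.0% reached 2 FPKM in an older library. Puberty replicate 3 was the lowest again, at 69.2% (135 of 195). Of the loci it failed, 60 were under 2 FPKM there and 46 of these lay between 1 and 2, so most missed the limit narrowly and did not lack signal.

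**Figure D4:**
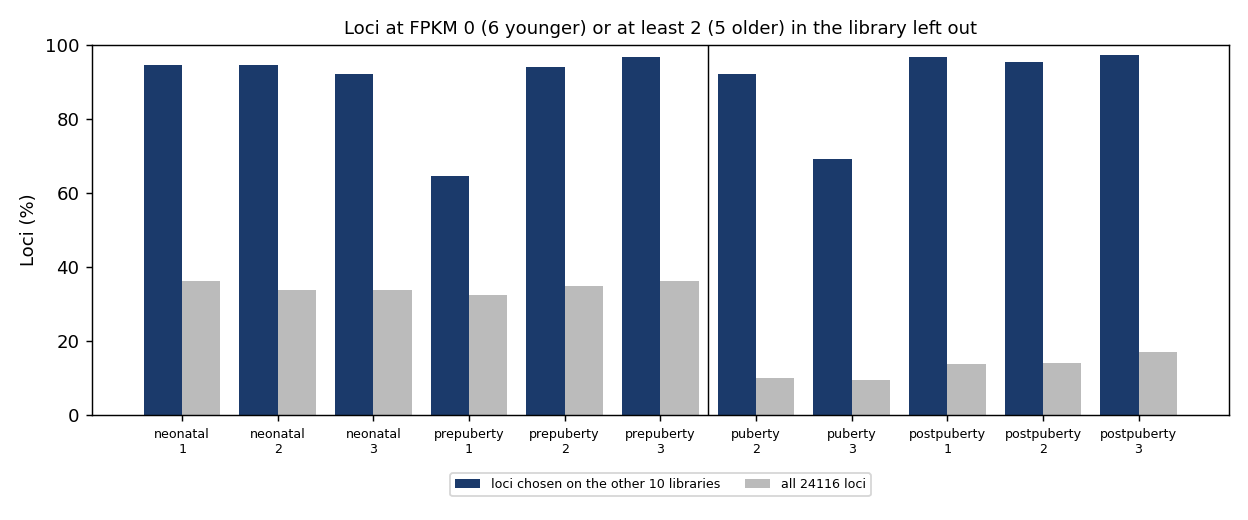
Percent of loci at FPKM 0 in each younger library (left of the line) or at 2 FPKM or more in each older library (right), for loci chosen on the other 10 libraries (dark) and for all 24116 loci (grey). Dark bars stand at 92.0% to 97.2% in 9 libraries, at 64.7% in prepuberty replicate 1 and at 69.2% in puberty replicate 3.

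Length was not itself a criterion of the choice. The length that the FPKM steps imply was a median of 999 bases in the 139 loci, from 185 to 6297, against 1345 over all loci with a length and 2238 over those tested. Only 12 of the 139 were under 500 bases, against 20.6% of all loci, and 14 were 3000 bases or more, while 72.0% of all loci were under that length. Against the tested loci the lengths were shifted down, with quartiles of 676 and 1720 bases where the tested loci had 972 and 5207. A longer locus collects more reads at one FPKM, so an exact 0 asks more of it, and a short locus reaches 2 FPKM on fewer reads. Whether this bore on the lengths of the 139 loci was not tested.

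The longest were MSTRG.293176 (6297 bases), MSTRG.247140 (5265) and MSTRG.207513 (5142). MSTRG.207513 had 5.96 and 11.1 FPKM at puberty and 11.1, 8.17 and 8.86 in postpuberty, on 7617 reads in all. MSTRG.293176 was low but even, with 2.74 and 2.31, then 2.82, 2.85 and 3.83. The shortest were MSTRG.61287 (185 bases), MSTRG.289601 (274) and MSTRG.136508 (292). MSTRG.61287 had 9.71 and 5.17 FPKM at puberty and 10.9, 7.11 and 15.5 in postpuberty, from 33 to 87 reads per library. Across the 139 loci, Spearman's rho between length and mean level in the older libraries was -0.32, and across the tested loci with a postpuberty mean of at least 2 FPKM it was -0.22.

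**Figure D5:**
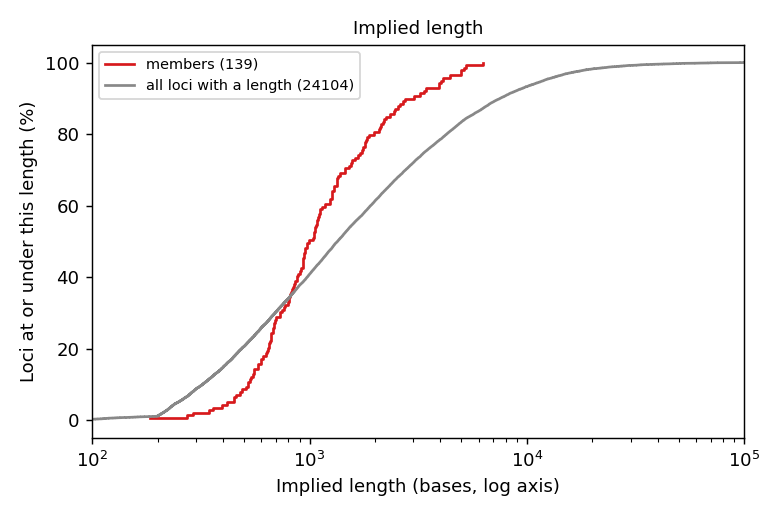
Share of loci (percent) at or under each implied length in bases (log axis), for the 139 loci and for all loci with a length. The curve of the 139 loci is steeper, with medians of 999 and 1345 bases.

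The numbers of the 139 loci ran from MSTRG.293 to MSTRG.399684. Another listed locus lay within 10 numbers of 104 of them (74.8%), against 76.3% of the 21782 listed loci of that range, so they were no more crowded than others. Of the 244 other loci within 10 numbers of a member, 57 (23.4%) were at 0 in all 6 younger libraries, against 17.0% of the listed loci of that range. In puberty against prepuberty, 36 of the 148 of them that were tested were called higher (24.3%), which is near the 23.7% of all loci tested. No genome position was taken from the numbers.

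Members lay within 10 numbers of each other in 2 cases only. MSTRG.289601 had 2.66 and 2.85 FPKM at puberty and 3.36, 3.76 and 4.34 in postpuberty, and MSTRG.289603 had 6.67 and 3.95, then 7.10, 5.88 and 9.15. The other case was MSTRG.222600, MSTRG.222606 and MSTRG.222609. MSTRG.222609 had 5.65 and 10.3 FPKM at puberty and 4.64, 10.6 and 18.9 in postpuberty, MSTRG.222600 had 6.60 and 6.05, then 8.37, 4.31 and 10.5, and MSTRG.222606 had 3.22 and 3.15, then 2.13, 4.83 and 6.83. All 3 were highest in postpuberty replicate 3. They belong to a stretch of 13 successive listed loci, MSTRG.222588 to MSTRG.222640, that were all at 0 in the 6 younger libraries, which was noticed after the values were seen. It was the longest of 2889 such stretches in the list, and only 2 reached 10 loci. Its other 10 loci stayed low at puberty and after it, at most 1.94 FPKM in any library (MSTRG.222633, postpuberty replicate 3). The 139 loci fell in 135 stretches, of which 74 were a single locus. That is 53.2% of the 139 loci, against 59.5% of all 3787 assembled loci at 0 in the younger libraries.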

How the data were processed

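Total RNA of black goat testis was sequenced with a long non-coding RNA library kit, per the labels. The authors deposited 1 table of FPKM values per library, with the same 24116 loci in each. Per the submitters' processing notes, HISAT2 2.1.0 and StringTie 2.1.1 were used. Build, annotation, counting and filters were not given in the sources used here.

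The members, lists and limits were chosen with earlier results of these data known. Whole reads and lengths were recovered from the steps of the FPKM values (24104 loci, deviation at most 0.0022 reads). The test was limma 3.58.1 (R 4.3.3) on log2(FPKM + 1), with age as the term, all 11 libraries and a filter of FPKM at least 1 in at least 2 libraries (12954 loci). Calls needed a two-sided Benjamini-Hochberg adjusted p under 0.05 and a log2 change of at least 1. The fit was tested on simulated data. Named loci were the 10 highest, the 5 highest and 5 lowest postpuberty to puberty ratios, the 3 longest and 3 shortest, those next to each limit and members close in number. Tables were read with Python 3.11.15. Same-numbered replicates did not deviate together.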

Additional observations from a re-analysis of the deposited data

How the results depend on the processing

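The number of loci depended on the limits of the rule: it was 341 with 1 FPKM and 48 with 4 FPKM asked of each older library, 369 with values under 0.1 taken as silent, and 141 with no limit on the puberty mean. Leaving out each library gave 143 to 215 loci (215 without prepuberty replicate 1, 195 without puberty replicate 3). The 6 calls of postpuberty above puberty became 0 with median of ratios scaling, 0 with quantile normalization and 0 with only the 2 ages compared (limma; 28 of the 139 at an unadjusted p under 0.05), and 5 to 15 when a library was left out (15 without puberty replicate 2). Over all loci tested, the 163 calls became 329 with a pseudocount of 0.1, 82 with median of ratios, 51 with quantile normalization, 380 on the TPM scale, 0 with only the 2 ages compared (2514 at an unadjusted p under 0.05) and 144 to 448 when a library was left out (448 without puberty replicate 2). The 3067 calls of puberty above prepuberty became 5829 with a pseudocount of 0.1, 6140 on the TPM scale and 5872 with voom on the recovered reads, and the share of calls that were higher moved from 64.6% to 81.8% with median of ratios and to 45.7% with quantile normalization. All 139 loci remained called there under each of these settings, but the rule chose them on that difference. Their calls there are therefore no check on the processing. The median ratio of postpuberty to puberty was 1.09 with median of ratios, 1.04 with quantile normalization and 1.34 on the TPM scale. It was 1.27 to 1.51 when an older library was left out. The causes of these changes were not tested. Among values of named loci, 627 kept their side of the call threshold, 49 lost the call and 8 gained it. Direction was compared only for loci called in the main fit, and 0 of their values reversed.

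Replicate numbers were not shown to mark shared animals, and deviations of same-numbered libraries correlated at -0.12 to 0.05. With the replicate block, 6 of the 139 loci were called higher in postpuberty and 139 at puberty, against 156 and 3038 of all loci. The calls at puberty follow from the rule. The block ended the call of MSTRG.8146 (limma adjusted p 0.0601). Values of 2 FPKM rest on few reads in short loci.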

Other observations

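A further 8 loci were at FPKM 0 in all 6 younger libraries and at 2 FPKM or more in each older one but fell outside the number, mean or ratio limits. MSTRG.405255 was the most abundant of them, with 41.5 and 69.02 FPKM in the puberty libraries and 43.02, 69.999 and 61.9 in the postpuberty libraries, means of 55.3 ± 19.4 (SD, n = 2) and 58.3 ± 13.8 (SD, n = 3). MSTRG.266351 had 44.96 and 30.5 FPKM at puberty and 55.1, 68.7 and 43.7 in postpuberty. Both were more abundant than any of the 139 loci by their older mean, and their ages overlapped. Of the 3 loci with a gene number, gene25422 was the highest, at 14.9 ± 3.64 FPKM (SD, n = 2) at puberty and 21.4 ± 10.7 (SD, n = 3) in postpuberty. MSTRG.166674 was lowest in postpuberty replicates 2 and 3, at 2.63 and 2.92 FPKM, against 7.63 and 7.99 at puberty and 8.83 in postpuberty replicate 1.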
